A study of Mus musculus with 12 samples.

Results

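The genes described here encode the NADPH oxidases of the mouse colon, the membrane enzymes that pass electrons from NADPH to oxygen and so make superoxide or hydrogen peroxide. They were chosen by symbol from the table of raw read counts: Cybb, Ncf1 and Ncf4 of the phagocyte enzyme, Cyba, which the phagocyte and Nox1 enzymes share, and Nox1, Noxo1, Noxa1, Duox2 and Duoxa2 of the epithelial enzymes. They make 9 of the 18514 genes in the table, and all 9 passed the filter on low counts that left 15484 genes for testing. RNA of colorectal tissue was sequenced from 12 male C57BL/6 mice in 4 groups of 3. The Ctrl mice drank ordinary water, and the Ctrl_Swim mice did the same and swam daily, for up to 90 min a day after a build-up. The Model mice received a single intraperitoneal dose of 10 mg/kg azoxymethane (AOM), a colon carcinogen, followed by 3 cycles of 2% dextran sulfate sodium (DSS) in the drinking water, which injures the colon lining, a course used to induce colitis-associated cancer. The Model_Swim mice swam daily before and during the same AOM/DSS course. All mice were bought at 4 weeks of age, and those that did not swim stood in shallow water. All mice were of 1 strain and 1 sex, and bulk tissue does not separate tumour from the rest of the colon.

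In the phagocyte enzyme, Cybb is the catalytic membrane subunit and Cyba its membrane partner. On activation the cytosolic organizer encoded by Ncf1 and the modulator encoded by Ncf4 join them, with a Rac GTPase, and the assembled enzyme makes the superoxide with which neutrophils and macrophages kill microbes. In colon epithelium Nox1 pairs with Cyba as well but uses its own organizer, Noxo1, and its own activator, Noxa1. Duox2 is a larger oxidase that releases hydrogen peroxide towards the gut lumen, where it takes part in defence against bacteria close to the mucosa, and it leaves the endoplasmic reticulum only with its maturation factor Duoxa2.

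Promoter sequences are given for the catalytic genes and for those partners that the comparison of the phagocyte and epithelial enzymes turns on. RefSeq sequences on GRCm38.p6, the build of the count table, were matched for 8 of the 9 genes, from 250 bases before to 50 bases after a tabled start site. Both strands were searched for 6 motifs. GAGGAA is a core of PU.1 and other ETS factors. The letters TTCNNNGAA are those of STAT factors, and a longer NF-kB motif was also searched. TGANTCA is the AP-1 motif. GATA factors read AGATAA. The TATA box was searched as TATAAA. Capitals mark the matches. Positions count from the start site, and a match on the minus strand is printed as it reads on the plus strand of the gene. The pair Duox2 and Duoxa2 is shown first because the genes lie head to head on chromosome 2, with tabled start sites 673 bases apart, and changed together. Duox2 is at chr2:122298178-122298477 on the minus strand and Duoxa2 at chr2:122298650-122298949 on the plus strand.
Duox2: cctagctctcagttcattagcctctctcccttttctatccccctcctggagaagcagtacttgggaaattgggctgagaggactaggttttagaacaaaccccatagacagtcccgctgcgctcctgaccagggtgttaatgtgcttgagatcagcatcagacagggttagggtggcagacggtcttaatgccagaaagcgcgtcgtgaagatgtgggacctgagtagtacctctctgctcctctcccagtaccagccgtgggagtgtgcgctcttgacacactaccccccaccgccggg
Duoxa2: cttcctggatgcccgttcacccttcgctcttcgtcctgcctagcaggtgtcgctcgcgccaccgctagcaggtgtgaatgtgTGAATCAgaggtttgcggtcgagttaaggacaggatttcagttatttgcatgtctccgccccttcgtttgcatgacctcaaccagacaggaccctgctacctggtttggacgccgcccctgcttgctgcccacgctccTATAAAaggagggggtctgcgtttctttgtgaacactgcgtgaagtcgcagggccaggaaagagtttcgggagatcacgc
The Duoxa2 window holds a TGANTCA match at -168 and a TATAAA match at -30, which 7.81% and 13.6% of the 32851 promoters of the same length also hold at any position, and the Duox2 window holds none of the 6 motifs. The phagocyte genes are shown to set beside Nox1: Cybb at chrX:9469275-9469574, Ncf1 at chr5:134229576-134229875 and Nox1 at chrX:134111805-134112104, all 3 on the minus strand.
Cybb: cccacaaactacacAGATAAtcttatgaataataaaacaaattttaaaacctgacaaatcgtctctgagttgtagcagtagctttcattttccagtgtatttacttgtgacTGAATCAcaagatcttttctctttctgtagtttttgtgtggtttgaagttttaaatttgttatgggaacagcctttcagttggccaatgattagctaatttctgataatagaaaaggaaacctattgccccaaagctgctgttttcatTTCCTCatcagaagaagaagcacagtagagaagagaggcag
Ncf1: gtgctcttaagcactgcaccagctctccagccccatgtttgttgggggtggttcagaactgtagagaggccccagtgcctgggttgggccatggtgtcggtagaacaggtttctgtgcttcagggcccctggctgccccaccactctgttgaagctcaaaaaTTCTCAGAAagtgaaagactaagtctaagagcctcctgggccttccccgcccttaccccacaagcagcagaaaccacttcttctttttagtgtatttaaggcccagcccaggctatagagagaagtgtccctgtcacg
Nox1: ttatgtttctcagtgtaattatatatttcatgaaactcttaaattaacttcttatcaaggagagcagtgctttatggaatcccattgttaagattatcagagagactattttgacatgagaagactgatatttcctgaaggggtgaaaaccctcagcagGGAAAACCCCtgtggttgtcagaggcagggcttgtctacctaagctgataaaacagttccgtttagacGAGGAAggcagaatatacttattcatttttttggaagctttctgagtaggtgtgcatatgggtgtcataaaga
The GAGGAA letters occur at position 10 on the minus strand in Cybb and at -23 in Nox1, and in 28.3% of all promoters. Cybb also holds TGANTCA at -139 and AGATAA at -236, Ncf1 holds TTCNNNGAA at -88, and Nox1 holds an NF-kB match at -91 on the minus strand. The NF-kB motif was the rarest searched, with 1.63% of all promoters. The TTCNNNGAA letters occur in 8.3% and AGATAA in 11.2%. The gene models of Cybb, Nox1 and Duox2 reach further upstream than these tabled starts. The other genes lie at chr8:122424771-122432940 (Cyba), chr15:78244164-78262582 (Ncf4), chr17:24696234-24700530 (Noxo1) and chr2:25085667-25095205 (Noxa1). Their promoters are not printed. Cyba and Noxa1 each hold an AGATAA match, at -220 and -73, and Noxo1 holds none of the motifs. These are letter matches in 1 window per gene and say nothing of binding.

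The libraries held 17256953 to 19451055 counts, at which 3 counts correspond to 0.154 to 0.174 CPM. CPM are counts scaled to library size, here after TMM scaling, and values below are CPM unless a sentence names FPKM, the per-length unit that allows levels of different genes to be set beside each other. Tissue composition differed between libraries. The summed level of 8 pancreatic acinar genes was 36701 CPM in Model 1 and 17683 CPM in Model 3, against 9.49 to 88.4 CPM in the other 10 libraries, and Model 3 also stood apart with 20.5 CPM over the 4 distal colon genes, against 77.1 to 251 CPM elsewhere. Squamous epithelium genes summed to between 102 and 1360 CPM in Model 1, Model 2, Ctrl_Swim 4 and the Model_Swim mice, to 42.1 CPM in Ctrl_Swim 2 and to between 2.50 and 4.53 CPM in the other 5 libraries. The part of these differences in the oxidase results was not tested beyond 2 kinds of fit given below. These left out those libraries or added a term for a division by traces of pancreatic transcripts.

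In FPKM the mean of each epithelial gene stood above those of the phagocyte genes in every group, although Duoxa2 in Ctrl_Swim mice (5.33 to 9.22 FPKM) overlapped Cybb, Ncf1 and Ncf4 (up to 5.55, 6.56 and 5.69 FPKM). In Ctrl mice Cyba was at 67.1 ± 2.54 FPKM (SD, n = 3), Noxa1 at 41.5 ± 1.24, Duox2 at 30.6 ± 8.37, Noxo1 at 28.7 ± 1.85, Nox1 at 20.2 ± 3.27 and Duoxa2 at 14.2 ± 5.19 FPKM. Cybb followed at 3.44 ± 0.261, Ncf1 at 2.95 ± 0.118 and Ncf4 at 2.69 ± 0.508 FPKM. Cyba and Noxa1 stood clear of the genes below them, while the ranges of Duox2 overlapped those of Noxo1 and Nox1, those of Nox1 and Duoxa2 overlapped, and those of Ncf1 and Ncf4 overlapped. In Model mice the order changed within the epithelial genes. Cyba was at 109 ± 22.1 FPKM, and Duox2 at 72.8 ± 2.17 and Duoxa2 at 55.7 ± 9.67 FPKM came next, above Noxo1 at 32.2 ± 1.87, Noxa1 at 30.1 ± 3.65 and Nox1 at 25.9 ± 9.70 FPKM, whose 3 ranges overlapped. The phagocyte genes were again lowest, with Cybb at 8.69 ± 0.594, Ncf1 at 7.65 ± 0.501 and Ncf4 at 6.86 ± 1.02 FPKM. In both groups the highest oxidase levels were thus those of epithelial genes and of Cyba, which both cell classes use.

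**Figure D1:**
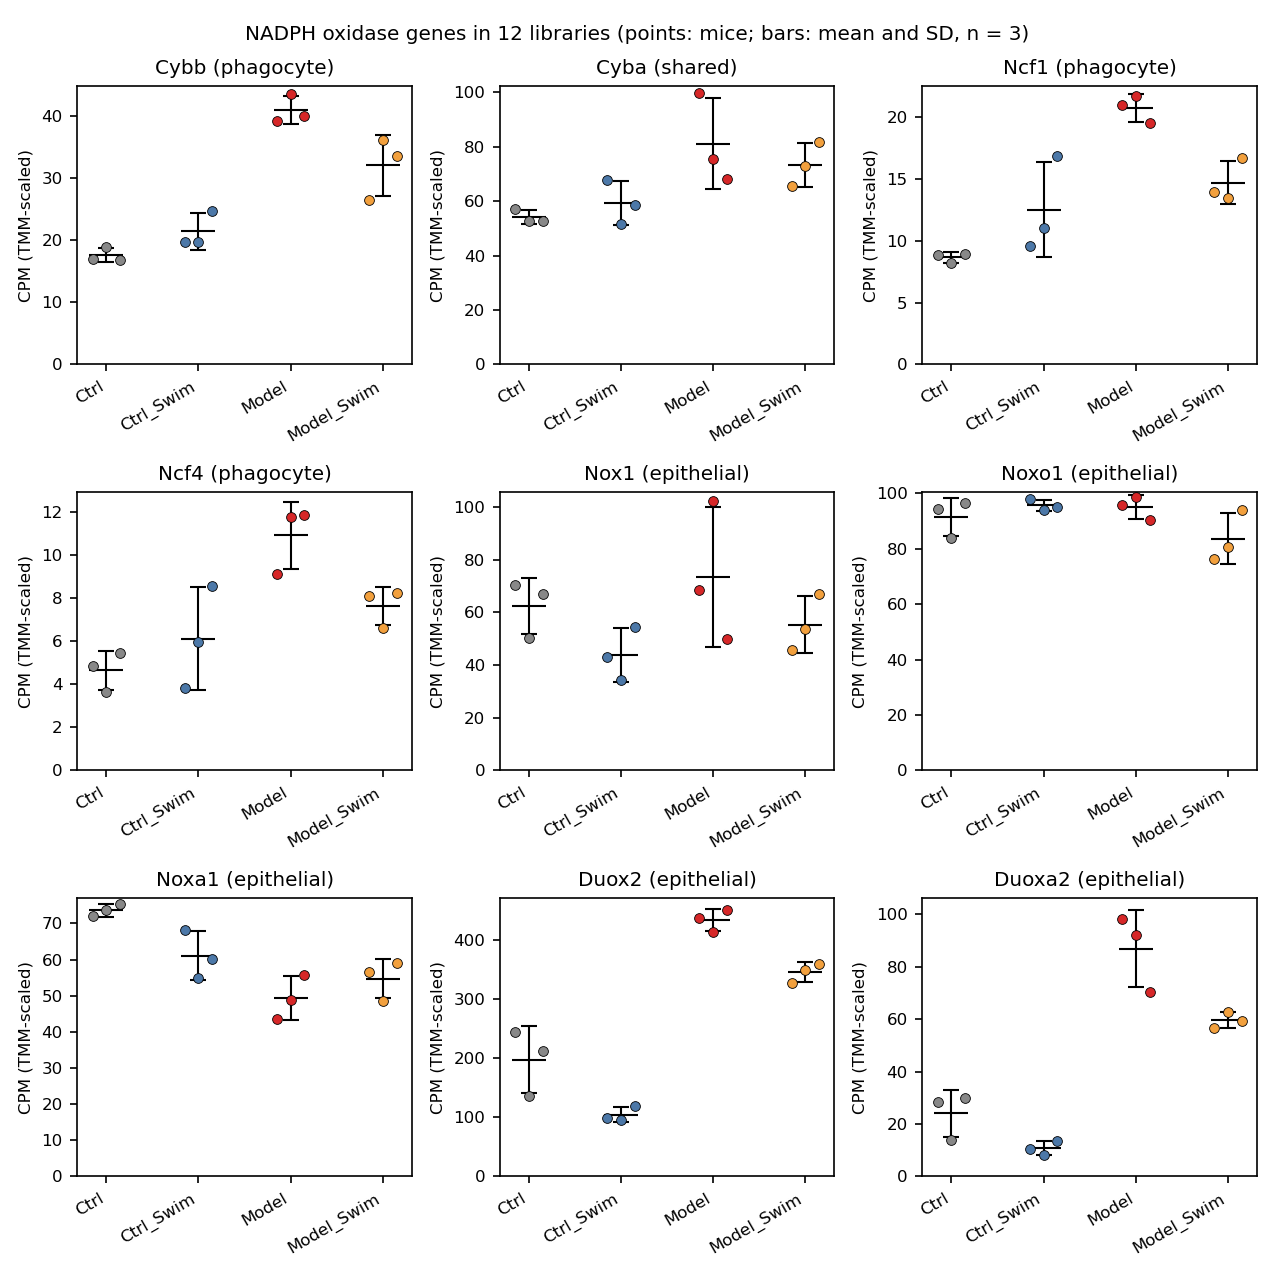
Level of each of the 9 oxidase genes in TMM-scaled CPM (vertical axes, linear from 0) in the 4 groups (horizontal axes), with 1 point per mouse and bars for the mean and SD of 3 mice. Cybb, Duox2 and Duoxa2 are higher in all 6 AOM/DSS mice than in all 6 others, while Nox1 and Noxo1 overlap between Ctrl and Model mice.

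AOM/DSS without swimming raised the 3 phagocyte genes together, each by a little over a 2-fold change, raised Duox2 and Duoxa2, left no call on Nox1 or Noxo1 and lowered Noxa1. Of the 9 genes, 7 were called at an adjusted p below 0.05 in edgeR's quasi-likelihood test, 6 higher and 1 lower, where 32.7% of all genes tested were called, 16.5% as higher and 16.2% as lower. The median log2 fold change was 1.14 over the 9 genes and 0.01 over all genes tested. A fold change over 2 as well was reached by 5 of the 9, against 7.43% of all genes. The groups did not overlap for 7 of the 9, against 44.2% of all genes. The members and the gene lists below were chosen with earlier results of these data known. Their counts beside shares of all genes are therefore descriptions.

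Cybb, the catalytic subunit, was at 17, 18.9 and 16.8 CPM in the 3 Ctrl mice and at 39.2, 43.5 and 40.1 CPM in the 3 Model mice. All Model mice lay above all Ctrl mice, with little spread inside either group. The fold change was 2.33, or 1.22 ± 0.13 on the log2 scale (SE), with an adjusted p of 0.000357 in edgeR. Ncf1, the organizer, was at 8.89, 8.18 and 8.96 CPM in Ctrl and at 21.0, 21.7 and 19.5 CPM in Model mice, again without overlap. Its log2 fold change was 1.26 ± 0.18, with an adjusted p of 0.00108 in edgeR. Ncf4, the modulator, was at 4.86, 3.65 and 5.44 CPM in Ctrl and at 9.11, 11.8 and 11.9 CPM in Model mice, a log2 fold change of 1.23 ± 0.27 with an adjusted p of 0.00618 in edgeR. The log2 fold changes of these 3 genes differed from each other by less than their errors. Cyba, the shared membrane partner, had a smaller fold change. It was at 57.0, 52.8 and 52.6 CPM in Ctrl and at 99.9, 75.6 and 68.0 CPM in Model mice, with Model 1 well above the other two. The groups did not overlap, and the log2 fold change was 0.58 ± 0.14, with an adjusted p of 0.0108 in edgeR. Beside these values, the 5 pan-leukocyte genes summed to 129 to 159 CPM in Ctrl and to 303 to 352 CPM in Model mice. In bulk tissue, a different number of cells of a type and a different amount of RNA per cell cannot be told apart.

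Among the epithelial genes, Duox2 was at 245, 136 and 213 CPM in Ctrl and at 438, 415 and 452 CPM in Model mice, so that the Ctrl mice varied more than the Model mice and lay below them. The log2 fold change was 1.14 ± 0.17 with an adjusted p of 0.00131 in edgeR. Duoxa2, its maturation factor, was at 28.4, 13.7 and 30.02 CPM in Ctrl and at 98.0, 92.2 and 70.3 CPM in Model mice, a log2 fold change of 1.85 ± 0.26 with an adjusted p of 0.000927 in edgeR. Ctrl 2 was the lowest Ctrl mouse for both genes of this pair. Noxa1, the activator of the Nox1 enzyme, was at 71.9, 73.6 and 75.4 CPM in Ctrl and at 43.5, 48.8 and 55.7 CPM in Model mice. It fell by 0.58 ± 0.11 on the log2 scale with an adjusted p of 0.00312 in edgeR, and no Model mouse reached a Ctrl mouse. Each of these 7 calls was kept in all 22 alternative fits that tested the gene, which include leaving out each mouse in turn and leaving out Model 1 and Model 3 together. Beside these values, the 8 colon epithelium genes summed to 13014 to 14809 CPM in Ctrl and to 9966 to 10355 CPM in Model mice. The 5 surface colonocyte genes summed to 8136 to 8688 CPM in Ctrl mice and to 1320, 2353 and 6155 CPM in Model 1, Model 2 and Model 3. The part of these levels in the epithelial results was not tested, apart from the values relative to the epithelial list given further on.

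Nox1, the catalytic subunit of the colon epithelium, gave no call. It was at 70.3, 50.2 and 66.8 CPM in Ctrl and at 68.3, 102 and 49.9 CPM in Model mice, so that Model mice held both the highest and the lowest value of the 2 groups. The log2 fold change was 0.24, with a 95% interval of -0.32 to 0.79 and an adjusted p of 0.4997 in edgeR, and it was -0.055 without Model 2. Model 3, the lowest, was also the library with few distal colon transcripts, and the part of that in the Nox1 level was not tested. Noxo1, the organizer, was at 94.3, 83.7 and 96.3 CPM in Ctrl and at 95.5, 98.7 and 90.2 CPM in Model mice. Its log2 fold change was 0.05 with a narrow 95% interval of -0.13 to 0.23 and an adjusted p of 0.655 in edgeR. For Noxo1 the interval leaves out a 2-fold change in either direction, and for Nox1 it does so as well but allows an increase of over 1.5-fold.

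In swimming mice AOM/DSS raised Duox2 and Duoxa2, and Cybb by a smaller fold change. In the comparison of Model_Swim with Ctrl_Swim 3 of the 9 genes were called, all higher, where 5.18% of all genes tested were called and 3.49% as higher. The groups did not overlap for 4 of the 9, against 32.4% of all genes. The median log2 fold change was 0.32 over the 9 genes and -0.01 over all genes. Duox2 was at 98.6, 95.5 and 119 CPM in the Ctrl_Swim mice and at 327, 350 and 360 CPM in the Model_Swim mice, with no overlap. The log2 fold change was 1.73 ± 0.18 with an adjusted p of 0.00277 in edgeR. Duoxa2 was at 10.5, 8.19 and 13.6 CPM in Ctrl_Swim and at 56.6, 62.8 and 59.3 CPM in Model_Swim mice, a fold change of 5.51, or 2.46 ± 0.27 on the log2 scale, with an adjusted p of 0.00277 in edgeR. Both calls were kept in all 22 alternative fits.

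Cybb was at 19.7, 19.7 and 24.8 CPM in Ctrl_Swim and at 26.5, 36.1 and 33.6 CPM in Model_Swim mice. The groups did not overlap, but Ctrl_Swim 4 and Model_Swim 1 lay close to each other. The log2 fold change was 0.58 ± 0.12 with an adjusted p of 0.0269 in edgeR, and the adjusted p rose to between 0.0985 and 0.105 without Ctrl_Swim 2, Ctrl_Swim 3, Model_Swim 2 or Model_Swim 3. Ncf1 was at 9.59, 11.1 and 16.9 CPM in Ctrl_Swim and at 14.0, 13.5 and 16.7 CPM in Model_Swim mice, and Ncf4 was at 3.84, 5.96 and 8.59 CPM against 8.09, 6.64 and 8.22 CPM. Ctrl_Swim 4 held the highest value of the 6 swimming mice for both genes, and these groups overlapped. The log2 fold changes were 0.23 (95% interval -0.16 to 0.63, adjusted p = 0.486 in edgeR) for Ncf1 and 0.32 (-0.26 to 0.89, adjusted p = 0.518 in edgeR) for Ncf4. Without Ctrl_Swim 4 they were 0.51 (adjusted p = 0.0692 in edgeR) for Ncf1 and 0.64 (adjusted p = 0.171 in edgeR) for Ncf4, and without Ctrl_Swim 2, the lowest mouse for both, 0.060 and 0.057, so neither gene was called in either fit. In Ctrl_Swim 4 the 5 pan-leukocyte genes summed to 285 CPM, against 139 and 167 CPM in the other Ctrl_Swim mice and 198 to 253 CPM in Model_Swim mice, and its 6 B cell genes summed to 122 CPM, against 40.5 to 59.2 CPM in the other 5 swimming mice. Their part in the Ncf1 and Ncf4 levels was not tested. Cyba was at 67.7, 51.6 and 58.5 CPM against 65.7, 72.8 and 81.6 CPM, and its log2 fold change of 0.31 was not called (adjusted p = 0.230 in edgeR).

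The genes of the Nox1 enzyme were not called in swimming mice. Nox1 was at 43.0, 34.2 and 54.4 CPM in Ctrl_Swim and at 45.6, 53.6 and 66.9 CPM in Model_Swim mice, a log2 fold change of 0.34 with a 95% interval of -0.23 to 0.90 and an adjusted p of 0.482 in edgeR. Without Ctrl_Swim 3 it was 0.18, without Model_Swim 3 0.17 and without Ctrl_Swim 4 0.52. Noxo1 was at 97.7, 93.8 and 95.1 CPM against 76.2, 80.4 and 93.8 CPM. The groups all but met at 93.8 CPM, and the log2 fold change of -0.20 was not called (adjusted p = 0.195 in edgeR). Noxa1 was at 68.2, 54.8 and 60.2 CPM against 56.5, 48.6 and 59.0 CPM, with overlap and a log2 fold change of -0.16 (adjusted p = 0.420 in edgeR).

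Averaged over swimming and non-swimming mice, the AOM/DSS effect was largest for the Duox2 pair among the 9 genes and smaller for the phagocyte genes. The fit called 7 of the 9, with 6 higher and 1 lower, where 33.4% of all genes tested were called, 17% as higher and 16.5% as lower. The average log2 fold change was 1.43 ± 0.12 for Duox2 and 2.16 ± 0.19 for Duoxa2, each with an adjusted p of 6.27e-05 in edgeR. It was 0.90 ± 0.09 for Cybb, 0.75 ± 0.13 for Ncf1 and 0.77 ± 0.19 for Ncf4, and 0.45 ± 0.10 for Cyba, with adjusted p from 0.000102 for Cybb to 0.00922 for Ncf4 in edgeR. Noxa1 fell by 0.37 ± 0.08. Cybb, Duox2 and Duoxa2 were the 3 members whose 6 AOM/DSS mice all lay above the other 6, where 5.97% of all genes were higher without overlap. Nox1 gave 0.29 (95% interval -0.11 to 0.68, adjusted p = 0.244 in edgeR) and Noxo1 gave -0.07 (-0.20 to 0.06, adjusted p = 0.371 in edgeR). For Nox1 the average was called, at 0.51 and an adjusted p of 0.0337 in edgeR, only in the fit without Model 1 and Model 3 together, which leaves 1 Model mouse whose spread is taken from the other groups. Without Model 2 it was 0.14.

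**Figure D2:**
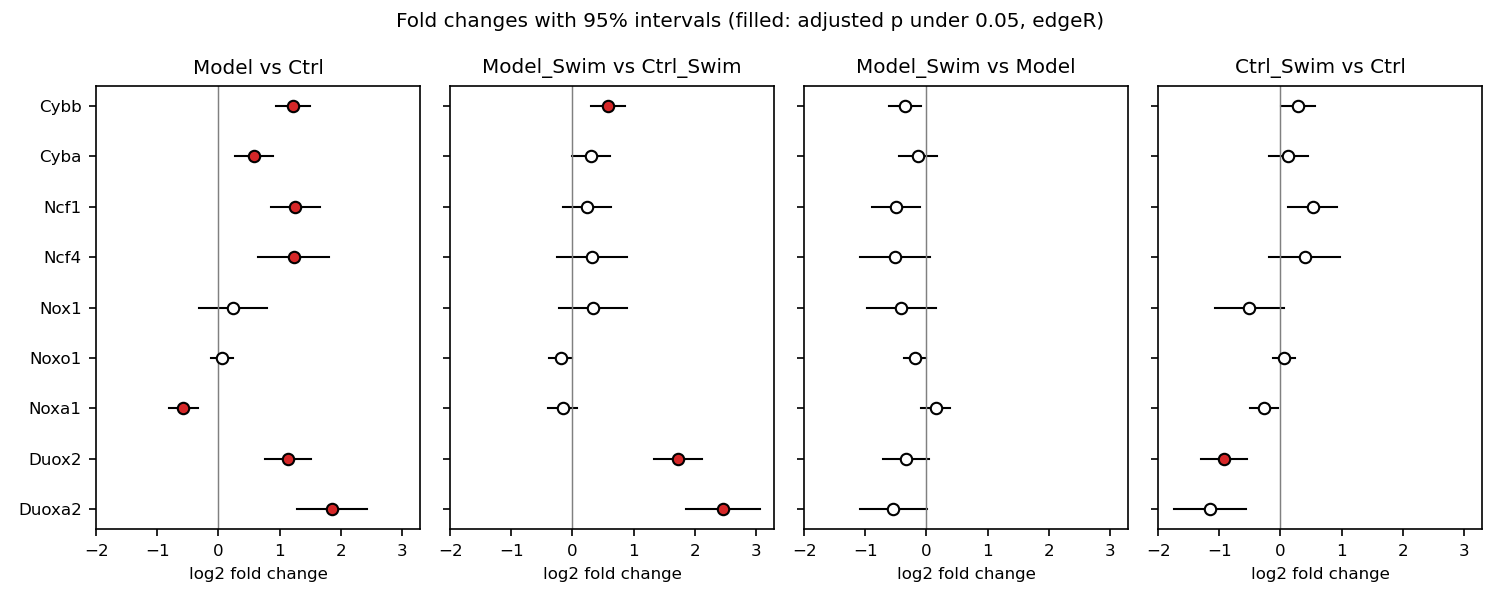
Log2 fold changes (horizontal axes) of the 9 oxidase genes in 4 comparisons from 1 edgeR fit, with 95% intervals and filled points where the adjusted p was below 0.05. The filled points are 7 in Model vs Ctrl, 3 in Model_Swim vs Ctrl_Swim, 0 in Model_Swim vs Model and 1 (Duox2, lower) in Ctrl_Swim vs Ctrl.

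The comparison of Model_Swim with Model asks what swimming changed under AOM/DSS. None of the 9 genes was called in edgeR or in DESeq2, where 0.071% of all genes tested were called in edgeR. Without adjustment 3 members had a p below 0.05 in edgeR (Cybb, Ncf1 and Noxo1), against 13.6% of all genes. The direction was lower for 8 of the 9, and the Model_Swim mice all lay below the Model mice for 5 of them, Cybb, Ncf1, Ncf4, Duox2 and Duoxa2, where 8.57% of all genes did so. From the values given above, Cybb ran from 26.5 to 36.1 CPM in Model_Swim and from 39.2 to 43.5 CPM in Model mice, a log2 fold change of -0.35 (95% interval -0.62 to -0.08, adjusted p = 0.265 in edgeR). Ncf1 gave -0.49 (-0.89 to -0.10, adjusted p = 0.276) and Ncf4 -0.51 (-1.08 to 0.06, adjusted p = 0.422), both in edgeR. For Duox2 the Model_Swim mice reached 360 CPM at most and the Model mice 415 CPM at least, a log2 fold change of -0.33 (-0.71 to 0.05, adjusted p = 0.433 in edgeR). Duoxa2 gave -0.54 (-1.09 to 0.005, adjusted p = 0.372 in edgeR). The intervals for Cybb, Ncf1 and Duox2 leave out a 2-fold fall from the Model level, whereas those for Ncf4 and Duoxa2 reach just beyond it. Over the 22 alternative fits the log2 fold change ran from -1.11 to -0.45 for Duoxa2 and from -0.52 to -0.24 for Duox2. It ran from -0.53 to -0.24 for Cybb, from -0.75 to -0.44 for Ncf1 and from -0.63 to -0.43 for Ncf4.

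Beside these values, the 5 pan-leukocyte genes summed to 198 to 253 CPM in Model_Swim and to 303 to 352 CPM in Model mice, and the 6 B cell genes to 40.5 to 59.2 CPM and to 114 to 132 CPM. The macrophage and monocyte genes overlapped, at 712 to 853 CPM and 828 to 900 CPM. Neutrophil genes ranged from 59.7 to 630 CPM in Model_Swim and from 30.6 to 426 CPM in Model mice. The colon epithelium genes summed to 11004 to 11784 CPM in Model_Swim and to 9966 to 10355 CPM in Model mice, and the surface colonocyte genes to 7565 to 8099 CPM and to 1320 to 6155 CPM, both without overlap. Relative to the pan-leukocyte list, a scale explained further on, the groups overlapped for all 3 phagocyte genes. Means in Model and Model_Swim mice were -0.50 and -0.31 for Cybb, -1.47 and -1.42 for Ncf1 and -2.40 and -2.35 for Ncf4. Relative to the colon epithelium list the Duox2 pair stayed lower in Model_Swim mice without overlap. Those means were -1.19 and -1.69 for Duox2 and -3.52 and -4.22 for Duoxa2. The part of these levels in the comparison was not tested.

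In mice without AOM/DSS, swimming went with lower Duox2. Of the 9 genes 1 was called, as lower, where 0.969% of all genes tested were called and 0.801% as lower. Duox2 was at 136 to 245 CPM in Ctrl and at 95.5 to 119 CPM in Ctrl_Swim mice, without overlap. Its log2 fold change was -0.92 ± 0.17 with an adjusted p of 0.0411 in edgeR, and the call was lost in 14 of 22 alternative fits, 8 of them leaving out 1 mouse. Without Ctrl 1, Ctrl 3 or any 1 of the 3 Ctrl_Swim or 3 Model_Swim mice the adjusted p lay between 0.0642 and 0.179, while the log2 fold change stayed between -1.12 and -0.72 over all 12 fits that left out 1 mouse. Duoxa2 moved the same way, at 13.7 to 30.02 CPM in Ctrl and 8.19 to 13.6 CPM in Ctrl_Swim mice, where Ctrl 2 and Ctrl_Swim 4 all but met. Its log2 fold change of -1.15 ± 0.27 missed the threshold in edgeR (adjusted p = 0.0739) and passed it in DESeq2 (adjusted p = 0.000805).

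The other genes were not called in this comparison. Cybb and Ncf1 were higher in all 3 Ctrl_Swim than in all 3 Ctrl mice, with log2 fold changes of 0.29 (adjusted p = 0.267 in edgeR) and 0.53 (adjusted p = 0.191 in edgeR). Without Ctrl_Swim 4 these values were 0.18 and 0.26, and beside them the 5 pan-leukocyte genes summed to 129 to 159 CPM in Ctrl mice and to 139, 167 and 285 CPM in Ctrl_Swim 2, 3 and 4. Noxa1 was lower in all 3 Ctrl_Swim mice, with a log2 fold change of -0.27 (adjusted p = 0.231 in edgeR). In all, 5 of the 9 genes had no overlap, where 27.4% of all genes did. Nox1 was at 50.2 to 70.3 CPM in Ctrl and 34.2 to 54.4 CPM in Ctrl_Swim mice, a log2 fold change of -0.51 with a 95% interval of -1.07 to 0.06 and an adjusted p of 0.327 in edgeR. Goblet cell genes, which mark mucus-secreting cells of the epithelium, summed to 36287 to 46971 CPM in Ctrl and to 13127 to 16885 CPM in Ctrl_Swim mice, and Pigr, the carrier of antibodies to the lumen, was at 6664 to 6860 CPM and at 4406 to 5301 CPM. The 8 colon epithelium genes summed to 13014 to 14809 CPM in Ctrl and to 10468 to 13491 CPM in Ctrl_Swim mice. Relative to that list, as log2 CPM minus its mean log2 CPM, the groups overlapped for both genes of the Duox2 pair. Duox2 ran from -3.17 to -2.43 in Ctrl and from -3.64 to -3.02 in Ctrl_Swim mice. Duoxa2 ran from -6.47 to -5.50 and from -6.97 to -6.13. The part of these levels in the lower Duox2 was not tested.

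Whether AOM/DSS acted differently with and without swimming was tested as an interaction. No gene of all those tested was called in edgeR, so the background was 0%, and 5 of the 9 members had an unadjusted p below 0.05 in edgeR against 19% of all genes. In unscaled CPM the phagocyte genes and the Duox2 pair had estimates of opposite sign here. The difference between the AOM/DSS effects, with swimming minus without, was -0.64 ± 0.17 for Cybb, -1.02 ± 0.26 for Ncf1 and -0.91 ± 0.37 for Ncf4 on the log2 scale, and 0.59 ± 0.24 for Duox2 and 0.61 ± 0.37 for Duoxa2. The adjusted p in edgeR were 0.123, 0.115, 0.222, 0.224 and 0.391. Each kept its sign over the alternatives, but the size varied. Ncf4 gave -0.61 without Ctrl_Swim 4 and -0.57 with the replicate block. In limma on log2(FPKM + 1) Duox2 gave 0.39 and Duoxa2 0.35, and in edgeR Duox2 gave 0.38 without Ctrl 1 and Duoxa2 0.39 without Ctrl 3. DESeq2 called Cybb (adjusted p = 0.0344) and Ncf1 (adjusted p = 0.0140), among 766 genes of the whole table, and edgeR called Ncf1 (adjusted p = 0.0470) without Ctrl_Swim 2. Noxa1 gave 0.42 ± 0.15 (adjusted p = 0.176 in edgeR) and Nox1 0.10, with a 95% interval of -0.69 to 0.89 that leaves its direction unsettled. The median interaction was -1.10 over the pan-leukocyte genes, -2.08 over the B cell genes and -0.11 over the macrophage and monocyte genes. Relative to marker lists, explained further on, the AOM/DSS differences without and with swimming were 0.05 and 0.35 for Cybb. They were 0.08 and 0.05 for Ncf1, 0.06 and 0.16 for Ncf4, 1.57 and 1.68 for Duox2 and 2.31 and 2.43 for Duoxa2. On that scale Cybb and Ncf4 took the sign of the Duox2 pair. The part of cell composition was not tested.

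Within each library the phagocyte and epithelial catalytic genes were also set against each other in FPKM, as values without a test. Nox1 exceeded Cybb by 4.40- to 6.83-fold in Ctrl mice, by 2.86- to 3.63-fold in Ctrl_Swim, by 2.06- to 3.89-fold in Model and by 2.46- to 3.29-fold in Model_Swim mice. The Ctrl mice lay apart from all others in this ratio. Duox2 exceeded Cybb by 5.68- to 11.4-fold in Ctrl, by 3.79- to 3.95-fold in Ctrl_Swim, by 7.53- to 8.90-fold in Model and by 7.67- to 9.75-fold in Model_Swim mice, so that here the Ctrl_Swim mice were the ones apart, and Ctrl overlapped both AOM/DSS groups. The balance inside the epithelium shifted more evenly. Duox2 exceeded Nox1 by 1.29- to 1.67-fold in Ctrl and by 1.04- to 1.34-fold in Ctrl_Swim mice, against 1.94- to 4.32-fold in Model and 2.57- to 3.43-fold in Model_Swim mice. The lowest AOM/DSS mouse, Model 2, was thus above the highest untreated mouse. The mean log2 ratio of Nox1 to Duox2 was lower in AOM/DSS mice by a difference of -1.19, from -1.31 to -1.08 over the leave-one-out values, and the direction held in each pair of groups, with means of -0.57 in Ctrl and -1.56 in Model, and of -0.20 in Ctrl_Swim and -1.59 in Model_Swim mice. The mean log2 ratio of Cybb to Nox1 was -2.54 in Ctrl and -1.51 in Model mice, but -1.74 in Ctrl_Swim and -1.51 in Model_Swim mice, whose ranges overlapped. Duox2 exceeded its partner Duoxa2 by 1.86- to 2.58-fold in Ctrl and 2.28- to 3.05-fold in Ctrl_Swim mice, against 1.17- to 1.68-fold in Model and 1.46- to 1.59-fold in Model_Swim mice, so the pair came closer to equal levels in every AOM/DSS mouse. Between the organizers, Noxo1 exceeded Ncf1 by 9.42- to 9.89-fold in Ctrl, 5.19- to 9.38-fold in Ctrl_Swim, 4.18- to 4.25-fold in Model and 5.01- to 5.49-fold in Model_Swim mice.

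**Figure D3:**
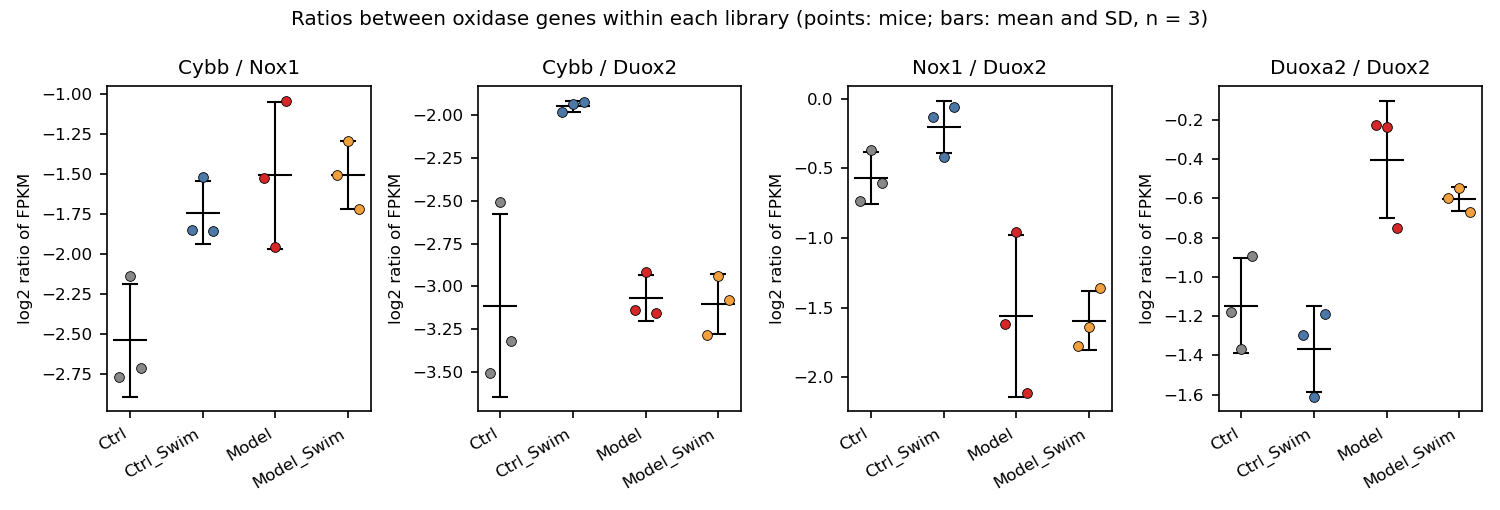
Log2 ratio of FPKM between 2 oxidase genes in the same library (vertical axes) by group, with 1 point per mouse and bars for the mean and SD of 3 mice. The Nox1 to Duox2 ratio is lower and the Duoxa2 to Duox2 ratio higher in all 6 AOM/DSS mice than in all 6 others, and the Cybb to Duox2 ratio is highest in the 3 Ctrl_Swim mice.

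Because tissue composition differed, each gene was also expressed relative to a marker list, as log2 CPM minus the mean log2 CPM of the list. The pan-leukocyte list is not particular to phagocytes, so values against it are not levels per phagocyte. The 6 B cell genes summed to 29.9 to 60.1 CPM in Ctrl and 114 to 132 CPM in Model mice. They summed to 41.1 to 122 CPM in Ctrl_Swim and 40.5 to 59.2 CPM in Model_Swim mice. Macrophage and monocyte genes summed to 443 to 458, 828 to 900, 401 to 505 and 712 to 853 CPM in the same order. Against the 5 pan-leukocyte genes (Ptprc, Laptm5, Coro1a, Cd53 and Cd52), Cybb ran from -1.04 to -0.30 in the 6 mice without AOM/DSS and from -0.63 to -0.10 in the 6 AOM/DSS mice, and Ncf1 from -1.68 to -1.38 and from -1.67 to -1.30. For Ncf4 the ranges were -2.68 to -2.20 and -2.62 to -2.09. All 3 phagocyte genes overlapped on this scale. In unscaled CPM over the same mice Ncf1 and Ncf4 overlapped as well, and Cybb did not. The Model mean differed from the Ctrl mean by 0.05 for Cybb, 0.08 for Ncf1 and 0.06 for Ncf4. In swimming mice the Model_Swim minus Ctrl_Swim differences were 0.35 for Cybb, against 0.58 in the unscaled comparison, 0.05 for Ncf1 and 0.16 for Ncf4. The Cybb value leaned on Ctrl_Swim 4 and was 0.16 without it. Leaving out each mouse in turn, an alternative chosen after seeing the data, gave -0.05 to 0.17 for Cybb in Model minus Ctrl and 0.16 to 0.51 in Model_Swim minus Ctrl_Swim. In the same order it gave 0.0074 to 0.18 and -0.019 to 0.093 for Ncf1. For Ncf4 it gave -0.044 to 0.19 and 0.025 to 0.265, so some of these directions turned. The leukocyte list itself was higher in Model than in Ctrl mice by 1.17 on this scale and in Model_Swim than in Ctrl_Swim mice by 0.22, a value that was 0.52 without Ctrl_Swim 4 and 0.01 without Ctrl_Swim 2. In Model vs Ctrl each of its 5 genes was called higher, against 16.5% of all genes.

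Against 8 colon epithelium genes, Duox2 ran from -3.64 to -2.43 in the 6 mice without AOM/DSS and from -1.78 to -1.13 in the 6 AOM/DSS mice. Duoxa2 ran from -6.97 to -5.50 and from -4.31 to -3.35. Both genes therefore stayed without overlap, with Model minus Ctrl differences of 1.57 and 2.31 and Model_Swim minus Ctrl_Swim differences of 1.68 and 2.43. The epithelial list itself was lower in Model than in Ctrl mice by a difference of -0.39, with 6 of its 8 genes called lower, against 16.2% of all genes. Nox1 overlapped on this scale (-4.92 to -4.15 and -4.63 to -3.26), as did Noxo1 and Noxa1 over all 12 mice. The Model minus Ctrl difference was 0.58 for Nox1, against 0.24 in the unscaled comparison, and -0.19 for Noxa1, against -0.58. Without Model 2 the Nox1 value was 0.31, and without Model 1 the Noxa1 value was -0.095. For Noxo1 it was 0.45, against 0.05 unscaled, and the Model mice (-3.45 to -3.31) lay above the Ctrl mice (-3.87 to -3.80), while the Model_Swim minus Ctrl_Swim difference was -0.25. Cyba, which both cell classes carry, overlapped over all 12 mice against either list, at 0.19 to 1.43 and 0.13 to 0.92 against leukocytes and at -4.69 to -4.04 and -4.10 to -3.32 against epithelium. Its Model minus Ctrl difference had opposite signs against the lists, at -0.60 against leukocytes and 0.96 against epithelium, in both cases without overlap of those groups. The Model_Swim minus Ctrl_Swim differences of Cyba were 0.09 and 0.26, of the same sign. With 1 mouse left out, the value against leukocytes ran from -0.22 to 0.40. These relative values were not tested.

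**Figure D4:**
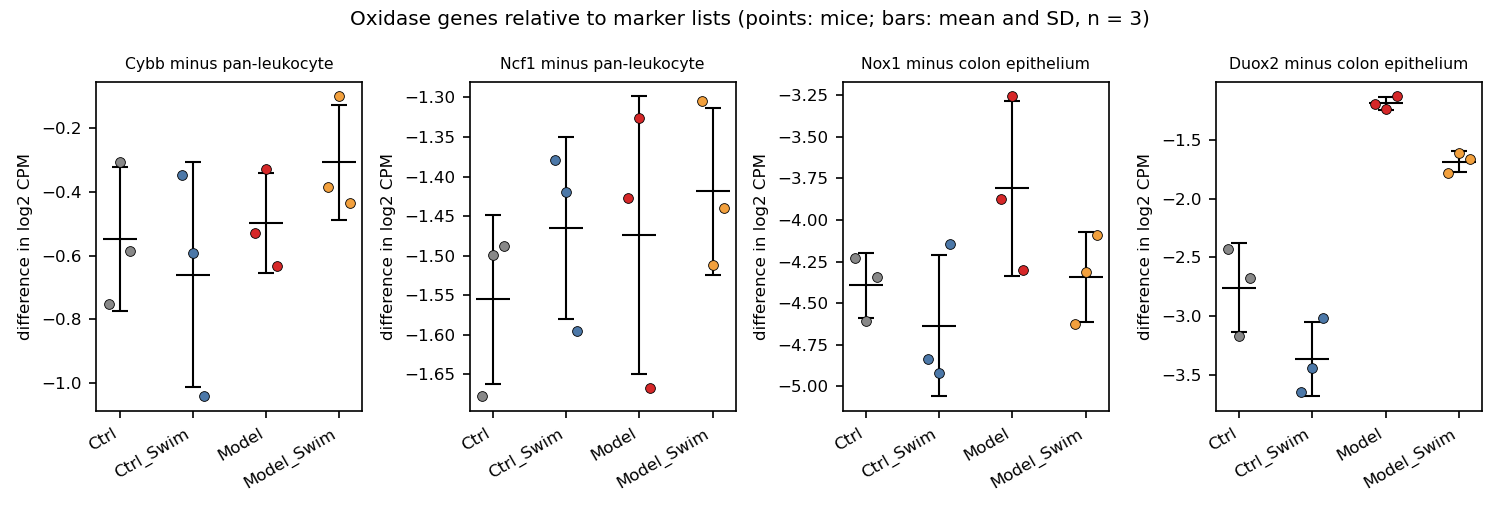
Cybb and Ncf1 relative to the pan-leukocyte list and Nox1 and Duox2 relative to the colon epithelium list, as differences in log2 CPM (vertical axes) by group, with 1 point per mouse and bars for the mean and SD of 3 mice. The groups overlap for Cybb, Ncf1 and Nox1, while Duox2 runs from -1.78 to -1.13 in the 6 AOM/DSS mice and from -3.64 to -2.43 in the 6 others.

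The remaining oxidase genes were read next. Of the 9 symbols listed, which include both symbols of Cybc1, the chaperone of the Cybb and Cyba heterodimer, 8 were in the table, with that gene under its earlier symbol BC017643, and 7 were tested. In Model vs Ctrl 3 were called higher and none lower, where 32.7% of all genes were called and 16.5% as higher. Rac2, the GTPase of leukocytes, was at 18.3 to 28.0 CPM in Ctrl and 43.4 to 49.2 CPM in Model mice, a log2 fold change of 1.09 ± 0.28 (adjusted p = 0.0144 in edgeR). BC017643 was at 29.97 to 34.1 and 37.5 to 46.3 CPM, a log2 fold change of 0.42 ± 0.09 (adjusted p = 0.00552 in edgeR). Nox4, an oxidase that makes hydrogen peroxide without the cytosolic subunits, was low, at 0.773 to 0.981 and 1.36 to 2.07 CPM, a log2 fold change of 0.90 ± 0.28 (adjusted p = 0.0299 in edgeR). Rac1, which most cells use, and Rap1a were not called, with log2 fold changes of -0.18 (adjusted p = 0.0787 in edgeR) and -0.11 (adjusted p = 0.341 in edgeR). Nox3, the oxidase of the inner ear, had 0 counts in all 12 libraries, which allows up to 0.174 CPM in a library, counting error only.

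Duox1, the other dual oxidase, was low and uneven, at 0.327 to 0.718 CPM in Ctrl, 0.274 to 2.81 CPM in Ctrl_Swim, 0.517 to 7.63 CPM in Model and 1.05 to 6.36 CPM in Model_Swim mice. Its average AOM/DSS effect was called (2.13 ± 0.71 on the log2 scale, adjusted p = 0.0407 in edgeR), although the groups overlapped. Its highest levels, in Model 2, Model_Swim 2 and Model_Swim 3, came in the 3 libraries with the most squamous epithelium transcripts (1360, 909 and 1028 CPM). In Model 3, where those genes summed to 3.85 CPM, Duox1 was at 0.517 CPM while Duox2 was at 452 CPM. The part of squamous tissue in the Duox1 result was not tested. Its maturation factor Duoxa1 reached 3.05 CPM in Model 2, had 0 counts in Ctrl 2 and Ctrl_Swim 3, and was not called on average (adjusted p = 0.113 in edgeR).

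Genes that act around the oxidases were taken as 3 lists. Of 15 tested genes that switch on the phagocyte enzyme or feed its activation (kinases, Fc receptors, integrins and the transcription factors that drive it), 11 were called higher and none lower in Model vs Ctrl, where 16.5% of all genes were called higher, with a median log2 fold change of 0.75 against 0.01 over all genes. Its 4 most abundant genes did not all follow: Prkcb, a protein kinase C of leukocytes, had a log2 fold change of 0.75 ± 0.15 (adjusted p = 0.00384 in edgeR), while Prkcd at 0.02, Irf8 at -0.08 and Pak1 at 0.10 were not called. Spi1, the transcription factor PU.1, was among those called, at 0.94 (adjusted p = 0.0135 in edgeR). In Model_Swim vs Ctrl_Swim, where 3.49% of all genes were called higher, 4 of the list were, the Fc receptor genes Fcgr1 (1.18), Fcgr3 (0.82) and Fcer1g (0.72) and the integrin Itgam (0.62), with adjusted p in edgeR from 0.00468 to 0.0470. Like other genes given here in addition to the 4 most abundant of a list, these were named after their values were seen.

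Of 25 tested genes that remove or use superoxide and peroxide, 4 were called higher and 9 lower in Model vs Ctrl, where 16.5% of all genes were called higher and 16.2% lower. The count of higher genes was thus near the share over all genes, and that of lower genes above it. The lower genes included both intracellular superoxide dismutases, Sod1 of the cytosol at -0.48 (adjusted p = 0.00537 in edgeR) and Sod2 of mitochondria at -0.42 (adjusted p = 0.00109 in edgeR), and Gpx2, the glutathione peroxidase of gut epithelium, which fell by 0.57 ± 0.12 (adjusted p = 0.00527 in edgeR). Prdx1, a peroxiredoxin, fell by 0.32 ± 0.10 (adjusted p = 0.0314 in edgeR), while Prdx6 and Txn1, also among the most abundant, were not called (-0.01 and -0.08). The 4 higher genes were Sod3, the extracellular superoxide dismutase, at 0.94, Gpx3, the secreted glutathione peroxidase, at 0.37, Hmox1, haem oxygenase, at 0.71, and Slc7a11, the cystine carrier that feeds glutathione synthesis, at 1.10, with adjusted p in edgeR from 0.000670 to 0.0379. In Model_Swim vs Ctrl_Swim, where 5.18% of all genes were called, Slc7a11 (1.90), Sod3 (0.76) and Txnrd1 (0.34) were called higher and Prdx3 (-0.37) and Txn2 (-0.25), both mitochondrial, lower.

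Of 7 tested antimicrobial genes of the epithelium 2 were called higher and 1 lower in Model vs Ctrl, a share near the 32.7% of all genes called. The higher genes were Nos2, the inducible nitric oxide synthase, at 3.85 (adjusted p = 0.00101 in edgeR) and Lcn2, which binds bacterial siderophores, at 2.88 (adjusted p = 0.00982 in edgeR), and both were called in swimming mice as well, at 3.43 and 2.71. Pigr fell by 0.55 ± 0.09 (adjusted p = 0.00200 in edgeR). Saa1 gave 1.06 ± 0.41 (adjusted p = 0.0696 in edgeR), and Reg3b and Reg3g, with log2 fold changes of -0.43 and -0.40, had standard errors of 1.08 and 0.929. Nos2 and Lcn2 are also made by leukocytes, and their source was not tested.

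Cytokines known to induce epithelial oxidases were scarce, summing to 1.87 to 3.75 CPM in the 6 mice without AOM/DSS and to 10.2 to 34.5 CPM in the 6 AOM/DSS mice. Of 8 listed, 4 could be tested and 3 were called higher in Model vs Ctrl, where 16.5% of all genes were. Among the 3, Il17a had 1 to 3 counts in Ctrl, 0 to 1 in Ctrl_Swim, 5 to 28 in Model and 1 to 15 in Model_Swim mice. It passed the filter only through AOM/DSS libraries, so its call was partly fixed beforehand and cannot be set against that share. The log2 fold changes in edgeR were 4.09 ± 0.55 for Il1b (adjusted p = 0.000737), 3.32 ± 0.48 for Tnf (adjusted p = 0.00101) and 3.03 ± 0.97 for Il17a (adjusted p = 0.0349), against -0.73 for Il13 (adjusted p = 0.532). In swimming mice Il1b and Tnf were called as well, at 3.69 (adjusted p = 0.00609 in edgeR) and 2.18 (adjusted p = 0.0250 in edgeR).

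Markers of the cells that carry the phagocyte enzyme were read in the same way. Of 10 macrophage and monocyte genes 8 were called higher and 1, the scavenger receptor Cd163, lower (-1.45) in Model vs Ctrl, where 16.5% of all genes were called higher and 16.2% lower. Lyz2 (lysozyme) had a log2 fold change of 1.35 ± 0.12, Csf1r (the receptor of macrophage growth factor) one of 0.57 ± 0.13, and the complement genes C1qa and C1qc 0.75 ± 0.12 and 0.80 ± 0.11. The list summed to 401 to 505 CPM in the 6 mice without AOM/DSS and to 712 to 900 CPM in the 6 AOM/DSS mice, without overlap, as for Cybb. Neutrophil genes did not run with Cybb in every library: they summed to 30.6 CPM in Model 3, within the 18.2 to 35.6 CPM of mice without AOM/DSS, and to 350 and 426 CPM in Model 1 and Model 2, while Cybb was at 40.1 CPM in Model 3 and at 39.2 and 43.5 CPM in the other Model mice. Of the 3 eosinophil genes tested none was called in Model vs Ctrl, and the eosinophil list summed to 2.86 to 6.60 CPM over all libraries. The 4 most abundant smooth muscle genes were not called in Model vs Ctrl. The 6 B cell genes summed to 29.9 to 60.1 CPM in Ctrl and to 114 to 132 CPM in Model mice, with 132 CPM in Model 3. Which cells the Cybb level came from was not tested.

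The genes whose profiles lay closest to those of the catalytic subunits were found by the root mean square distance between log2 CPM profiles, each centred over the 12 libraries, among 13918 genes. For Cybb, whose own profile had an SD of 0.494, they were Osmr (distance 0.107), Cp (0.118), Cxcl16 (0.119), Apoe (0.124) and Dram1 (0.127). For Duox2, with an SD of 0.825, they were Il1rl1 (0.263), Serpina3n (0.288), Nfkbiz (0.298), Mfsd2a (0.301) and Gpr171 (0.303). For Nox1, with an SD of 0.394, the nearest were Fam110a (0.197), Tnfsf13b (0.213), Bard1 (0.218), Pim1 (0.226) and Cd14 (0.235). Relative to its own spread Cybb thus had nearer neighbours than Nox1. These are descriptions over 12 libraries in 4 groups, and the groups themselves set much of each profile.

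Several of the genes share bases with a neighbour in the GENCODE annotation of this build. Nox1 shares 13034 bases of its span with Xkrx on the same strand, and 20528 with Arl13a and 399 with Cstf2 on the opposite strand. Also on the opposite strand, Ncf1 shares 4303 with Gtf2ird2, Noxo1 2581 with Tbl3, Duoxa2 695 with Duoxa1 and Noxa1 50 with Entpd8, while 8155 bases of Cyba lie within Gm20388. The library kit keeps strand, but the strand setting of the counting is not given in the sources used here. Reads of these overlaps may therefore have been left out or assigned to the neighbour, or reads of the neighbour counted for the member. The FPKM levels and ratios of these genes given above carry this limit. Cybb, Ncf4 and Duox2 share no such bases.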

How the data were processed

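Colorectal RNA of 12 mice, 3 in each of 4 groups, was sequenced from stranded poly(A) libraries. Trimmomatic, HISAT2 (to GRCm38.p6), HTSeq-count and Cufflinks were used by the authors, who deposited raw counts per gene and FPKM (fragments per kilobase of transcript, scaled to library size). Versions, the annotation release and the strand setting are not given in the sources used here. The labels name a mirVana kit for extraction and the study's methods name TRIzol. The 2 deposited tables give the same relative values for these genes across libraries, so FPKM served for levels between genes and for ratios.

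From the counts, edgeR 4.0.16 in R 4.3.3 (TMM scaling, filterByExpr with a minimum count of 10, 1 quasi-likelihood fit of the 4 groups without a replicate term, Benjamini-Hochberg adjustment over 15484 genes) gave 6 comparisons. A call is an adjusted p below 0.05. CPM were TMM-scaled, with a prior count of 2 on the log2 scale. Standard errors were taken from the fold change and its F statistic. p-values measure the spread between the 3 libraries of a group, which the labels only number and the study's methods describe as mice. An exact test of 3 against 3 could not go below 0.1, so none was used. No libraries were identical. DESeq2 1.42.0, limma 3.58.1 on log2(FPKM + 1) and log2(FPKM + 0.1), filters, fold cutoffs of 2, leaving out each mouse, Model 1 with Model 3, and terms for replicate number and for a division by traces of pancreatic transcripts (0.02% of the highest library as the border) were the alternatives. Scripts were tested on simulated data.

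The members and gene lists were chosen with earlier results of these data known. The text names all 9 members, the other oxidase genes but 1 that is not reported here, at most the 4 most abundant tested genes of each list, and the 5 nearest profiles of Cybb, Nox1 and Duox2 among genes averaging 1 CPM or more, without unnamed gene models and receptor segments of lymphocytes. Other genes of a list, which are those in counts of 5 or fewer and Spi1, Sod1 and Sod2, were named after their values were seen. Promoters came from RefSeq.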

Additional observations from a re-analysis of the deposited data

How the results depend on the processing

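The counts of members called in Model vs Ctrl (7), Model_Swim vs Ctrl_Swim (3) and Model_Swim vs Model (0) kept within 1.5 times under each alternative run, and the average AOM/DSS effect (7) did so except with the fold cutoff of 2, which left 2. Ctrl_Swim vs Ctrl (1 call, Duox2) was the least stable. It gave 0 with the fold cutoff, in the fit of only the 2 groups, with the replicate block, in the 3 limma fits and with the term for the division by pancreatic trace, 2 in DESeq2 and 2 without Model 1 and Model 3 together, and 0 to 2 when 1 mouse was left out. The adjusted p of Duox2 reached 0.429 with the trace term, at a log2 fold change of -1.05, which stayed between -1.12 and -0.72 over all 22 fits. That term sets Ctrl_Swim 2, Ctrl_Swim 4 and the 3 Model_Swim mice against the other 7 libraries and so largely cannot be told apart from swimming. Cybb in Model_Swim vs Ctrl_Swim lost its call with that term (adjusted p = 0.0912) and in limma without a filter (0.0658). Its log2 fold change stayed between 0.47 and 0.75 over all 22 fits. The interaction (0 calls) gave 2 in DESeq2 and 0 to 1 when 1 mouse was left out. Directions turned only for uncalled values: Nox1 in Model vs Ctrl (-0.055 to 0.46 with 1 mouse left out), Cyba in Model_Swim vs Model (-0.25 to 0.027) and in Ctrl_Swim vs Ctrl with the trace term (-0.068), Noxa1 in Model_Swim vs Model with the trace term (-0.079), and the interaction of Nox1 (-0.12 to 0.38 with 1 mouse left out, -0.37 without Model 1 and Model 3 together, -0.052 with the trace term). The cause was not tested. Replicate numbers were not taken to pair the mice, although correlations within groups of 3 cannot settle this. Over 15 same-numbered pairs the correlation of deviations ran from -0.26 to 0.56, with 4 above 0.1. The median was 0.0046, against -0.031 over differently numbered pairs. With the replicate block Duox2 in Ctrl_Swim vs Ctrl had a log2 fold change of -0.96 and an adjusted p of 0.180, and no other member's call changed. limma on log2(FPKM + 0.1) moved the median of all genes to 0.11 in Ctrl_Swim vs Ctrl and to -0.11 in the interaction.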
